A study of Mus musculus with 20 samples.

Results

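The 8 ion channel genes Scn4a, Cacna1s, Cacna1c, Clcn1, Kcnj2, Kcnq1, Kcnj11 and Gja1, known from heart or skeletal muscle, were followed in the hearts and the tibialis anterior muscles of dystrophin-deficient mice and their controls. They were chosen by name and not by a rule on their values, but with earlier results of these data known. All 8 have a row among the 22564 protein-coding genes of the deposited table. They code for the sodium channel subunit Scn4a, the calcium channel subunits Cacna1s and Cacna1c, the chloride channel Clcn1, the inward rectifier potassium channels Kcnj2 and Kcnj11, the delayed rectifier potassium channel subunit Kcnq1 and the gap junction protein Gja1. RNA was sequenced from 20 libraries, with 5 groups of 2 mice and a heart and a muscle library from each mouse. The question the design states is how the transcriptomes differ between healthy mice, mice that carry a system for incorporating an unnatural amino acid (UAA), dystrophic mice, and dystrophic mice with that system, with and without the amino acid.

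The WT mice were wild-type C57BL/6N. The transgenic mice were C57BL/6N with the UAA incorporation system, introduced by microinjecting linearized plasmids into fertilized eggs. The sources used here do not give the promoter that drives the system or the number of founder lines. The mdx mice, which carry a nonsense mutation in the dystrophin gene, were labelled C57BL/10, so that mdx genotype and strain cannot be told apart against WT, nor can strain and transgene in untreated trans/mdx against mdx. The trans/mdx mice came from crossing transgenic with mdx mice, are labelled C57BL/6N, and were kept without UAA (untreated trans/mdx) or given 50 mg of the amino acid NAEK every 2 to 3 days for 4 weeks (treated trans/mdx). The muscle libraries of the untreated trans/mdx group carry the genotype label transgenic and were placed in that group by their titles. Nor do they give the ages of the mice.

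An action potential in a striated muscle cell rises through voltage-gated sodium channels and is coupled to contraction through L-type calcium channels in the transverse tubules. In skeletal muscle Scn4a carries the sodium current, Cacna1s is the voltage sensor that opens the calcium release channel by direct contact, and Clcn1 carries the chloride conductance that stabilises the resting potential. In heart Cacna1c admits the calcium that triggers release, and Gja1 joins the cells electrically. Kcnq1 is among the potassium channels that can help to end the cardiac action potential. Kcnj2 holds the resting potential in both tissues, and Kcnj11 forms the pore of the ATP-sensitive potassium channel, which opens when energy is low.

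Implied sequencing depth was 3020000 to 4100000 fragments in heart and 1960000 to 2530000 in muscle. It was read from the smallest steps between low values, on which 62.6 to 72.2% of those values fell. The value of 1 fragment on 1 kb of transcript was thus 0.244 to 0.331 FPKM in heart and 0.395 to 0.511 FPKM in muscle. Markers matched the tissue labels. The 10 cardiomyocyte genes summed to 4700 to 9233 FPKM in heart and to 39.8 to 257 FPKM in muscle, and 12 fast skeletal fibre genes to 63.1 to 151 FPKM in heart and to 18610 to 38035 FPKM in muscle. Dmd itself stood at 7.65 and 15.1 FPKM in mdx hearts against 14.7 and 11.997 FPKM in WT hearts, and its mRNA level is no check of a nonsense mutation. Muscle WT replicate 2 stood apart, with the highest FPKM sum (208611, against 136461 to 170265 in the other muscles). Heart untreated trans/mdx replicate 1 had 12.6% of its low values at the smallest step, against 21.1 to 31.1% in the other hearts. Whether replicates are separate litters or cages is not stated, and p-values measure the spread between these mice.

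All 8 channels differed between heart and muscle. Cacna1s, Scn4a and Clcn1 were 85.0, 46.7 and 17.5 times as high in muscle as in heart by the ratio of mean FPKM over 10 libraries each, and Kcnj2 and Kcnj11 2.01 and 1.99 times. Cacna1c and Gja1 were 23.8 and 20.3 times as high in heart, and Kcnq1 was listed at 0 in every muscle. In limma on log2(FPKM + 1), 4197 of 10085 genes tested (41.6%) had a Benjamini-Hochberg adjusted p under 0.05, and all 8 members were among them. Cacna1c and Kcnq1 reached 1 FPKM in 0 of 10 muscles and passed the filter of 1 FPKM in 2 libraries through the hearts alone. Cacna1s reached it in 1 heart and passed through the muscles. Of the members, 5 were lower in heart, as were 31.2% of all genes tested, and 3 were higher in heart, as were 10.4%. The heart and muscle libraries did not overlap for 7 members (all except Kcnj11), against 10.7% of all genes tested. Because the genes were picked as channels of one tissue or the other, these counts describe them and are no evidence about channels in general. All 8 stayed called without muscle WT replicate 2 and heart untreated trans/mdx replicate 1, a choice made after seeing the data. The libraries come from whole tissue, in which fewer cells of a type and less RNA per cell cannot be told apart.

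**Figure D1:**
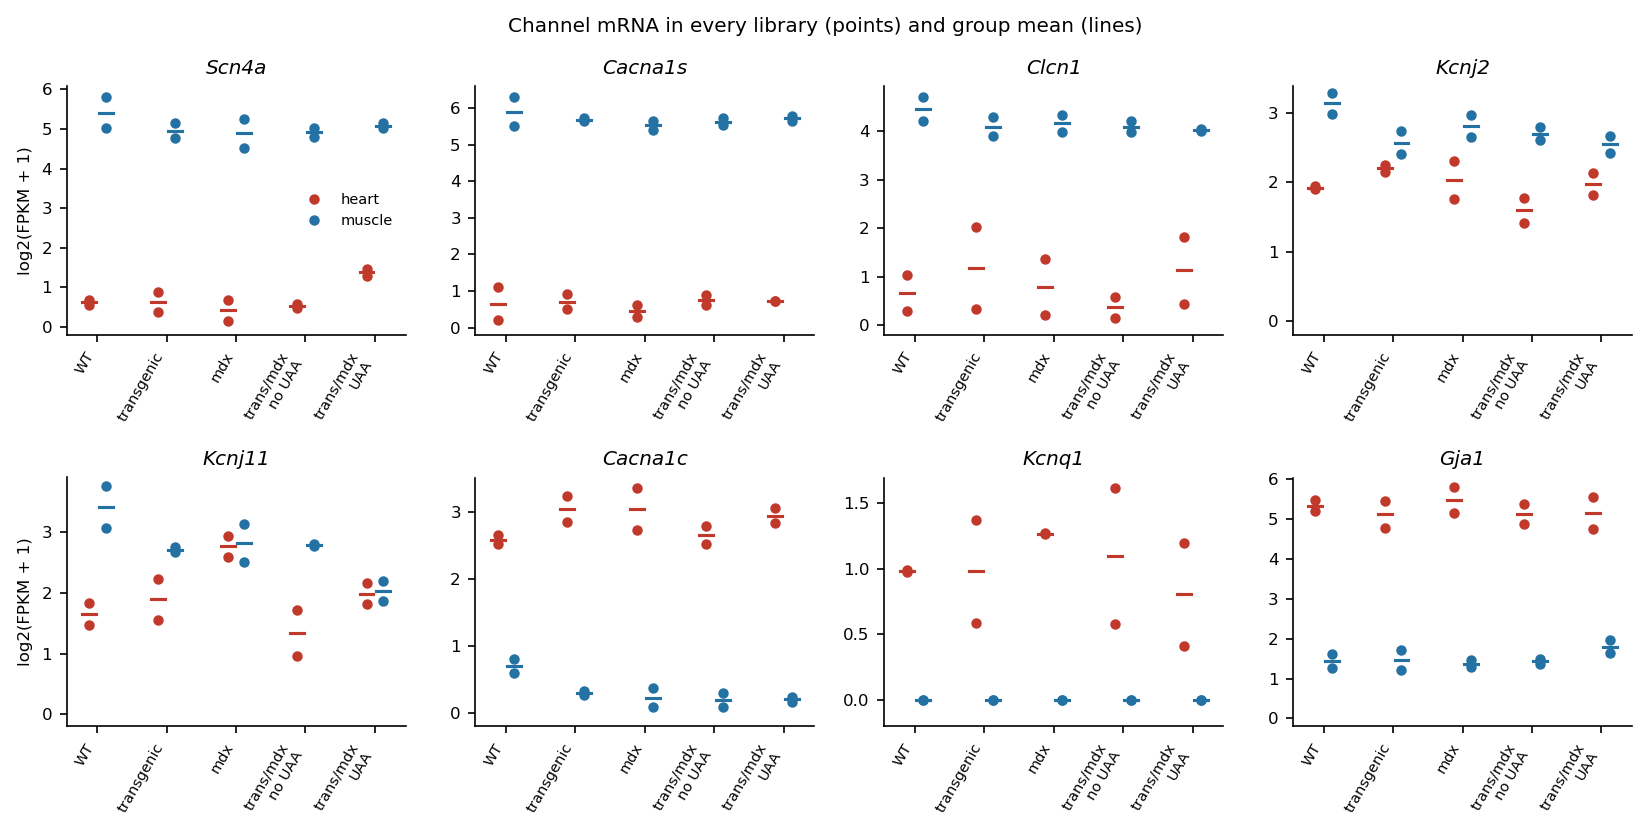
Level of each of the 8 channels in every library on the log2(FPKM + 1) scale, by group, for heart (red) and muscle (blue); points are libraries and lines the mean of 2. Heart and muscle points lie apart for 7 genes and overlap for Kcnj11, whose heart libraries are highest in mdx and whose muscle libraries are lowest in treated trans/mdx.

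Promoter windows of 300 bases, from 250 bases before to 50 bases after the annotated start, were taken from RefSeq on build GRCm38.p6 and were found for 6 of the 8 genes. Of these, 4 are printed here, 5′ to 3′ on the strand of the gene. They belong to the 3 channels with the largest differences of log2(FPKM + 1) toward muscle and to Gja1, with the largest toward heart (3.74). By the ratio of means Cacna1c (23.8) stood above Gja1 (20.3), and its windows are described below. Capitals mark E-boxes (CANNTG), the motif bound by the myogenic basic helix-loop-helix factors, and the MEF2 motif (CTA and TAG with any 4 bases between them). The Scn4a window is chr11:106349341-106349640 (minus strand), that of Cacna1s chr1:136052561-136052860 (plus strand), that of Clcn1 chr6:42286435-42286734 (plus strand) and that of Gja1 chr10:56377050-56377349 (plus strand).
Scn4a: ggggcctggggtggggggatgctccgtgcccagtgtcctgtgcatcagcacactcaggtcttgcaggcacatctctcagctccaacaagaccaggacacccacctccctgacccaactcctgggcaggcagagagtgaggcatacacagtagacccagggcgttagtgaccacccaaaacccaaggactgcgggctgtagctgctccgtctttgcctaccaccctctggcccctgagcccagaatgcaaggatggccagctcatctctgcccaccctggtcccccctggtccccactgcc
Cacna1s: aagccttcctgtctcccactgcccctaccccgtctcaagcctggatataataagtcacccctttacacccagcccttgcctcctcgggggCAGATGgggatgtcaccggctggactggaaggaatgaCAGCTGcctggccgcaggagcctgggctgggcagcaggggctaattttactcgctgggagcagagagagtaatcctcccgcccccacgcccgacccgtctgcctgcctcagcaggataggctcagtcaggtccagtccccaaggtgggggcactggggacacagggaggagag
Clcn1: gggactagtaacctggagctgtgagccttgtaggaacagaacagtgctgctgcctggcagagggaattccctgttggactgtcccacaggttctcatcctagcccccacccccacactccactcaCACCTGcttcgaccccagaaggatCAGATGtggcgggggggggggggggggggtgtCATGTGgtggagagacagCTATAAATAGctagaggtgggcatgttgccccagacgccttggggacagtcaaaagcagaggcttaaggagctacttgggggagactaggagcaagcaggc
Gja1: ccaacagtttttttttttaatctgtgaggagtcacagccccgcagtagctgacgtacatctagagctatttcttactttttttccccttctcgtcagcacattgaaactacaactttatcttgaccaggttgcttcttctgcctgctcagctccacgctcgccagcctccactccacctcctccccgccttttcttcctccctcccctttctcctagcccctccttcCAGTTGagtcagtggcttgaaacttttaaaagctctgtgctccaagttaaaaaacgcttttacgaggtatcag

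The Clcn1 window held 3 E-boxes, at positions -125, -101 and -69 from the start, and a MEF2 match, CTATAAATAG at -51. That match contains the TATA motif TATAAA at -50, so the 2 matches share letters. The Cacna1s window held 2 E-boxes, at -160 and -123, the M-CAT motif (CATTCC) on the other strand at -130, and a GC box (GGGCGG) on the other strand at -46. The Scn4a window, also from a channel high in muscle, held none of the 8 motifs searched. That window is set on a RefSeq start at 106349390, inside the annotated gene, whose 5′ end at 106353288 was not searched. The Gja1 window held 1 E-box at -23, which shares 2 letters with an AP-1 match, TGAGTCA at -19, and a GATA motif (AGATAA) on the other strand at -135.

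Kcnj2, whose levels differed by 2.01 times, had 2 E-boxes and 2 GC boxes (GGGCGG) in its window. The 3 windows of Cacna1c, which was high in heart, had 3, 2 and 1 E-boxes, and the second of them also 6 GC boxes. Over all 32851 windows of the table, searched on both strands, 72.3% held 1 or more E-boxes, 39.6% held 2 or more and 17.6% held 3 or more. MEF2 was found in 3.69% of windows, M-CAT in 14.7%, GATA in 11.2%, AP-1 (TGANTCA) in 7.81%, TATAAA in 13.6%, the GC box in 35.7% and NKX2-5 (AAGTGG), which no member held, in 16.9%. A match says only that the letters are there.

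Scn4a (chr11:106318592-106353288 in the mm10 annotation, minus strand) was low in every heart and abundant in every muscle. Heart levels were 0.4659 and 0.614 FPKM in WT, 0.857 and 0.308 in transgenic, 0.117 and 0.617 in mdx, 0.402 and 0.487 in untreated trans/mdx, and 1.76 and 1.45 in treated trans/mdx. Muscle levels were 31.6 and 54.7 FPKM in WT, 26.1 and 34.5 in transgenic, 37.4 and 22.0 in mdx, 26.8 and 31.6 in untreated trans/mdx, and 34.2 and 31.7 in treated trans/mdx. No heart came within 20 FPKM of any muscle, and both treated hearts were above the other 8 hearts. The difference of log2(FPKM + 1), heart minus muscle, was -4.33 (SE 0.17, adjusted p 2.39e-13).

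Cacna1s (chr1:136052750-136119822, plus strand) had the largest heart-muscle difference of the 8 genes. In the hearts it was at 0.158 and 1.14 FPKM in WT, 0.899 and 0.417 in transgenic, 0.212 and 0.534 in mdx, 0.841 and 0.539 in untreated trans/mdx, and 0.666 and 0.651 in treated trans/mdx. In the muscles it was at 44.4 and 77.8 FPKM in WT, 52.2 and 48.8 in transgenic, 49.5 and 41.2 in mdx, 52.1 and 45.4 in untreated trans/mdx, and 53.9 and 49.6 in treated trans/mdx. Apart from muscle WT replicate 2, the muscles kept within 41.2 to 53.9 FPKM. The highest mdx heart, at 0.534 FPKM, and the lowest trans/mdx heart, at 0.539 FPKM, lay closer than the value of 1 fragment (0.0391 to 0.0529 FPKM). They are thus not read as apart. Both treated hearts, at 0.666 and 0.651 FPKM, lay above both mdx hearts, and the other pairs of heart groups overlapped. These heart values rest on 3.77 to 24.3 implied fragments a library. Cacna1s did not pass the filter in heart. The log2 difference, heart minus muscle, was -5.03 (SE 0.16, adjusted p 2.02e-14). An antisense gene, Gm37759, overlaps exons of Cacna1s, and the sources used here do not say whether the counting used strand.

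Cacna1c (chr6:118587240-119196418, minus strand) showed the opposite pattern. Heart levels were 4.75 and 5.30 FPKM in WT, 8.46 and 6.22 in transgenic, 5.64 and 9.22 in mdx, 5.96 and 4.78 in untreated trans/mdx, and 6.13 and 7.36 in treated trans/mdx. Muscle levels were 0.751 and 0.518 FPKM in WT, 0.201 and 0.263 in transgenic, 0.294 and 0.0635 in mdx, 0.0612 and 0.231 in untreated trans/mdx, and 0.182 and 0.123 in treated trans/mdx. Every heart was above every muscle, and both WT muscles were above the other 8 muscles. These muscle values rest on 1.72 to 20.5 implied fragments a library, and Cacna1c did not pass the filter in muscle. Of the genes that did, 9.3% had both WT muscles above the other 8. On the log2 scale heart exceeded muscle by 2.53 (SE 0.15, adjusted p 1.46e-10). The deposited gene model spans 30.9% of the annotated gene.

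The main L-type pore subunit by FPKM was thus Cacna1s in muscle and Cacna1c in heart. Cacna1s made up 98.3 to 99.8% of the summed FPKM of Cacna1s, Cacna1c and Cacna1d in muscle and 3.03 to 17.6% in heart. Cacna1d, another L-type pore subunit, was at 0.0276 to 0.309 FPKM in heart and at no more than 0.0576 FPKM in muscle.

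Clcn1 (chr6:42286685-42315756, plus strand) was high in every muscle and scattered in the hearts. In the muscles it was at 17.5 and 25.02 FPKM in WT, 13.9 and 18.4 in transgenic, 19.2 and 14.8 in mdx, 17.4 and 14.8 in untreated trans/mdx, and 15.4 and 15.1 in treated trans/mdx. In the hearts it was at 1.04 and 0.220 FPKM in WT, 3.08 and 0.255 in transgenic, 0.149 and 1.56 in mdx, 0.495 and 0.111 in untreated trans/mdx, and 0.356 and 2.54 in treated trans/mdx. In each heart group 1 library was more than 4 times the other, and the group ranges overlapped one another. The log2 difference, heart minus muscle, was -3.34 (SE 0.24, adjusted p 2.65e-09). The deposited model of Clcn1 also covers Fam131b on the opposite strand, which was at no more than 0.198 FPKM in any library.

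Kcnj2 (chr11:111066164-111076821, plus strand) was the channel most alike in the 2 tissues whose libraries still did not overlap. Heart levels were 2.84 and 2.73 FPKM in WT, 3.77 and 3.43 in transgenic, 2.38 and 3.94 in mdx, 2.41 and 1.67 in untreated trans/mdx, and 2.52 and 3.39 in treated trans/mdx. Muscle levels were 8.80 and 6.89 FPKM in WT, 5.67 and 4.28 in transgenic, 5.31 and 6.79 in mdx, 5.95 and 5.09 in untreated trans/mdx, and 4.38 and 5.38 in treated trans/mdx. The highest heart, at 3.94 FPKM, lay just under the lowest muscle, at 4.28 FPKM, and both WT muscles were above the other 8. The log2 difference, heart minus muscle, was -0.81 (SE 0.15, adjusted p 2.88e-04). Kcnj2 made up from 65.0% to the whole of the summed FPKM of Kcnj2 and its relative Kcnj12 in heart and 46.1 to 75.6% in muscle.

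Kcnq1 (chr7:143106362-143427042, plus strand) was listed at 0 in all 10 muscles and was low in heart. In the hearts it was at 0.964 and 0.988 FPKM in WT, 0.504 and 1.59 in transgenic, 1.41 and 1.40 in mdx, 2.06 and 0.498 in untreated trans/mdx, and 0.332 and 1.29 in treated trans/mdx. In 3 groups (transgenic, untreated and treated trans/mdx) the replicates differed by more than any pair of group means. On the log2 scale heart exceeded muscle by 1.03 (SE 0.17, adjusted p 7.53e-05), and no fold is given against values listed at 0. The 10 muscle values add no spread, so this SE may understate the spread among hearts. At 3.04 to 25.3 implied fragments a heart library, the level was imprecise. Its accessory subunit Kcne1 was listed at 0 in all muscles and in 6 of 10 hearts. The antisense transcript Kcnq1ot1 overlaps exons of Kcnq1, and whether the counting kept reads of the 2 apart by strand is not stated.

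Kcnj11 (chr7:46093953-46100764, minus strand) was the only member whose heart and muscle libraries overlapped. Heart levels were 1.77 and 2.55 FPKM in WT, 1.94 and 3.70 in transgenic, 5.05 and 6.70 in mdx, 0.947 and 2.29 in untreated trans/mdx, and 2.53 and 3.46 in treated trans/mdx. Muscle levels were 7.41 and 12.6 FPKM in WT, 5.38 and 5.74 in transgenic, 7.75 and 4.66 in mdx, 5.81 and 5.96 in untreated trans/mdx, and 2.65 and 3.60 in treated trans/mdx. Both mdx hearts lay within the muscle range, the highest of all hearts, and both treated muscles lay within the heart range. The log2 difference, heart minus muscle, was -0.82 (SE 0.17, adjusted p 0.00100), and it was not called after quantile normalization (-0.44, adjusted p 0.0579).

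The deposited model of Kcnj11 is 1173 bases long and covers 17.2% of the annotated gene, which leaves 4.51 to 32.2 implied fragments a library in heart and 6.72 to 37.3 in muscle. Kcnj11 made up from 26.9% to the whole of the summed FPKM of Kcnj11 and the vascular pore subunit Kcnj8 in heart and 61.7 to 93.0% in muscle. The sulfonylurea receptor Abcc9, which assembles with either pore, was at 11.5 to 17.4 FPKM in heart and 11.6 to 20.8 FPKM in muscle, with overlapping ranges.

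Gja1 (chr10:56377330-56402513, plus strand) was the most abundant of the 8 in heart. In the hearts it was at 43.6 and 35.9 FPKM in WT, 43.1 and 26.4 in transgenic, 34.9 and 55.4 in mdx, 41.0 and 28.3 in untreated trans/mdx, and 25.9 and 45.8 in treated trans/mdx. In the muscles it was at 1.42 and 2.07 FPKM in WT, 1.34 and 2.29 in transgenic, 1.76 and 1.43 in mdx, 1.83 and 1.60 in untreated trans/mdx, and 2.12 and 2.92 in treated trans/mdx. The heart groups overlapped one another. In muscle, treated trans/mdx differed from untreated by 0.37 and from WT by 0.36 on the log2 scale (SE 0.38 for both), without passing the test. These muscle values rest on 10.2 to 24.0 implied fragments a library. On the log2 scale heart exceeded muscle by 3.74 (SE 0.17, adjusted p 3.44e-12). Gja1 made up 89.9 to 98.1% of the summed FPKM of Gja1, Gja5, Gjc1 and Gja4 in heart, and in muscle from 38.4% to the whole.

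**Figure D2:**
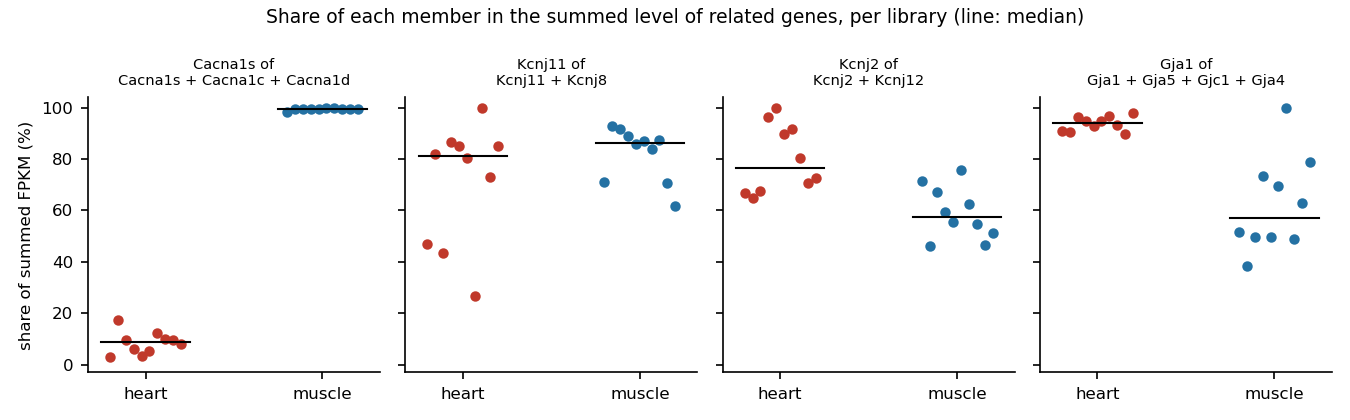
Share, in percent, of each of 4 members in the summed FPKM of the related genes named above each panel, for the 10 hearts (red) and 10 muscles (blue); lines are medians. The Cacna1s share lies between 3.03 and 17.6% in heart and between 98.3 and 99.8% in muscle, while the Kcnj11 shares of the tissues overlap.

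FPKM is per length of transcript, so levels can be set side by side between genes as far as the gene models hold. The deposited models span 17.2% of the annotated Kcnj11, 30.9% of Cacna1c and 52.0% of Gja1. What this does to the order was not tested. In heart the order of the medians was Gja1 (38.5 FPKM), Cacna1c (6.04), Kcnj2 (2.78), Kcnj11 (2.54), Kcnq1 (1.14), Cacna1s (0.595), Scn4a (0.550) and Clcn1 (0.425). Gja1 and Cacna1c did not overlap their next neighbour in that order, and the ranges of all later neighbours overlapped. In muscle the order was Cacna1s (49.5 FPKM), Scn4a (31.7), Clcn1 (16.4), Kcnj11 (5.77), Kcnj2 (5.53), Gja1 (1.80), Cacna1c (0.216) and Kcnq1 at 0. Cacna1s was above Scn4a, and Scn4a above Clcn1, in each of the 10 muscles although their ranges overlapped, whereas Kcnj11 was above Kcnj2 in 4 of 10.

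Related channel subunits, anchors and pumps were taken from 12 lists of 140 genes, of which 139 are in the table and 80 were tested in this comparison. Of these, 19 were higher in heart and 34 higher in muscle at an adjusted p under 0.05. Over all 10085 genes tested, 10.4% were higher in heart and 31.2% higher in muscle. The lists were chosen with earlier results of these data known, so their counts are a description. The sodium channel beta subunit Scn4b differed by -3.33 on the log2 scale, heart minus muscle. Cacng1, the gamma subunit of the skeletal calcium channel, differed by -4.75, and Stac3, an adaptor of that channel, by -5.21. Cacng1, at 0 in all 10 hearts, and Stac3, at no more than 0.815 FPKM there, passed the filter through the muscles alone. Cacnb2, the cardiac beta subunit of the calcium channel, at 2.74, and Rrad, an inhibitor of that channel, at 2.78 were higher in heart.

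Among potassium channels, Kcnj3 and Kcnj5, which form the muscarinic potassium channel, were higher in heart by 3.06 and 1.82. Kcnip2, a subunit of the transient outward current, and Kcnh2, the rapid delayed rectifier, were higher in heart by 2.64 and 1.54. Kcnj5 and Kcnip2 were at 0 in all 10 muscles and Kcnh2 at no more than 0.750 FPKM there. These 3 passed the filter through the hearts alone, so their calls are a description. Kcnk3, a two-pore leak channel, was higher in heart by 2.75. Kcna7, Kcnc1, Kcnma1 and Kcnj12 were lower in heart, with log2 differences of -3.14, -2.39, -2.02 and -1.53.

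Of 9 chloride and volume-regulated channels tested, 4 were lower in heart and none higher, with Ano5 at -3.24. Beside this and the list counts that follow, 31.2% of all genes tested were lower in heart and 10.4% higher. Of 5 connexins and pannexins tested, Gja3 (0.69) and Gja5 (0.61) were higher in heart and Panx1 (-0.64) lower. All 3 endplate receptor subunits tested were lower in heart, Chrnb1 most, at -1.40, as was Stim1, the calcium sensor of store-operated entry, at -2.95. The exchanger Slc8a1 was higher in heart by 3.85, and Atp1b2 and Slc8a3 were lower, at -3.35 and -2.75. Among the anchors, Ank2 (1.08) and Akap6 (0.90) were higher in heart, and Ank3 (-0.94) lower. None of the 4 pacemaker channels passed the filter. The median over all genes tested was -0.25, against -1.50 over the 4 sodium channel subunits, -0.57 over the 12 calcium channel subunits and 0.41 over the 5 connexins and pannexins.

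**Figure D3:**
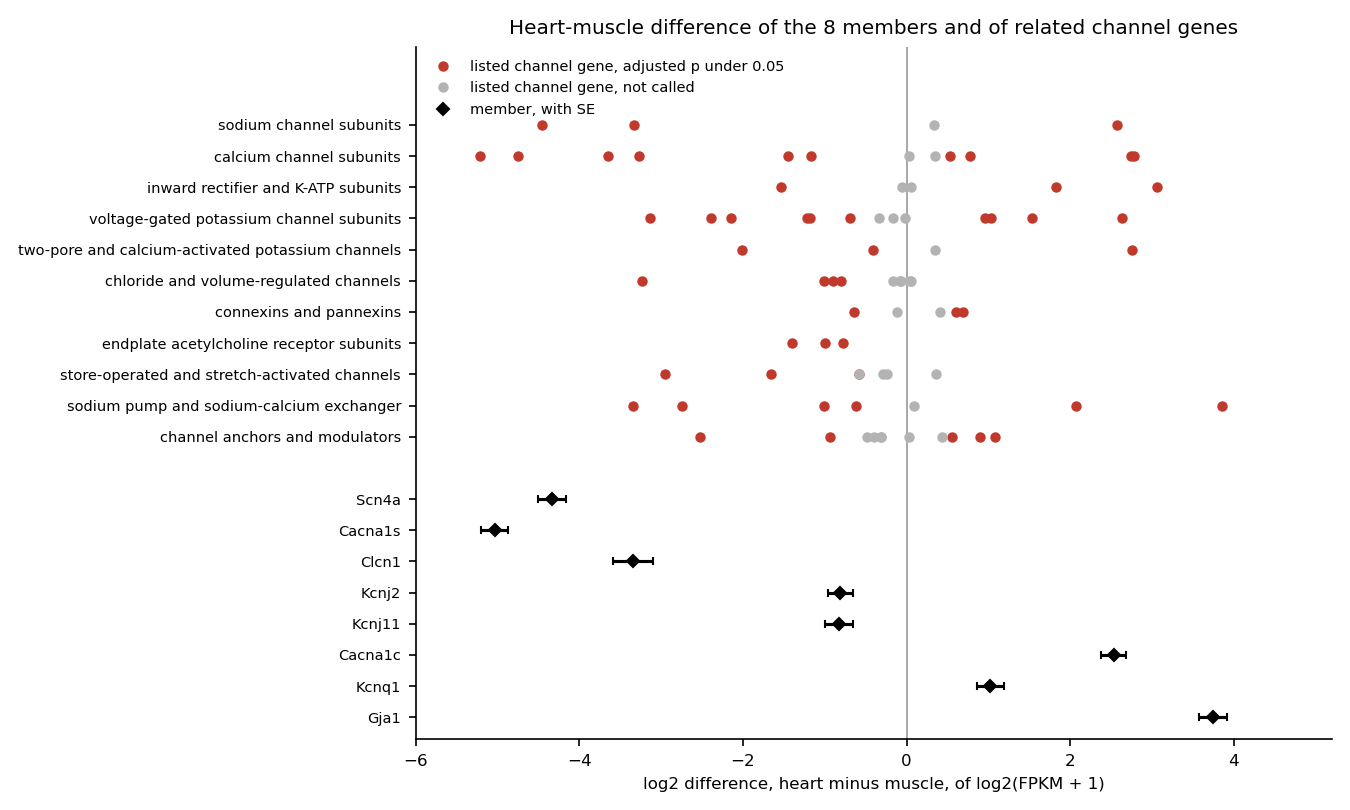
Difference of log2(FPKM + 1), heart minus muscle, for 80 listed channel genes by list (circles, red where the adjusted p was under 0.05) and for the 8 members (diamonds with SE). The members run from -5.03 for Cacna1s to 3.74 for Gja1, within the span of the listed genes from -5.21 for Stac3 to 3.85 for Slc8a1.

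Between the groups of one tissue no member passed the adjusted threshold. In all, 6 contrasts were fitted in each tissue: mdx against WT, transgenic against WT, untreated trans/mdx against transgenic and against mdx, and treated trans/mdx against untreated and against WT. In heart 7 members were tested (Cacna1s did not reach 1 FPKM in 2 hearts), and limma called 0 in any contrast. Of the 8269 genes tested there, 0.0121% were called in mdx against WT, in transgenic against WT and in untreated trans/mdx against mdx, and 0.0% in the other 3 contrasts. In muscle 6 members were tested (Cacna1c and Kcnq1 were too low), and 0 were called, as were 0.0% of 9126 genes in every contrast. Tests of whether a change differed between the tissues called 0 of 8 members and 0.0% of 10085 genes. Among members only Kcnj11 had unadjusted p-values under 0.05. Over all genes the share with such a p in the heart contrasts, in the order given, was 2.65, 3.37, 4.17, 5.79, 6.01 and 3.47%. In muscle it was 10.1, 9.91, 3.79, 5.33, 3.99 and 6.96%, and for the differences between tissues 6.0, 4.63, 3.89, 5.61, 4.56 and 4.77%. With 2 mice a group, log2 changes of members had an SE of 0.41 to 0.61 in heart and of 0.31 to 0.38 in muscle, so that these misses do not show equal levels.

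**Figure D4:**
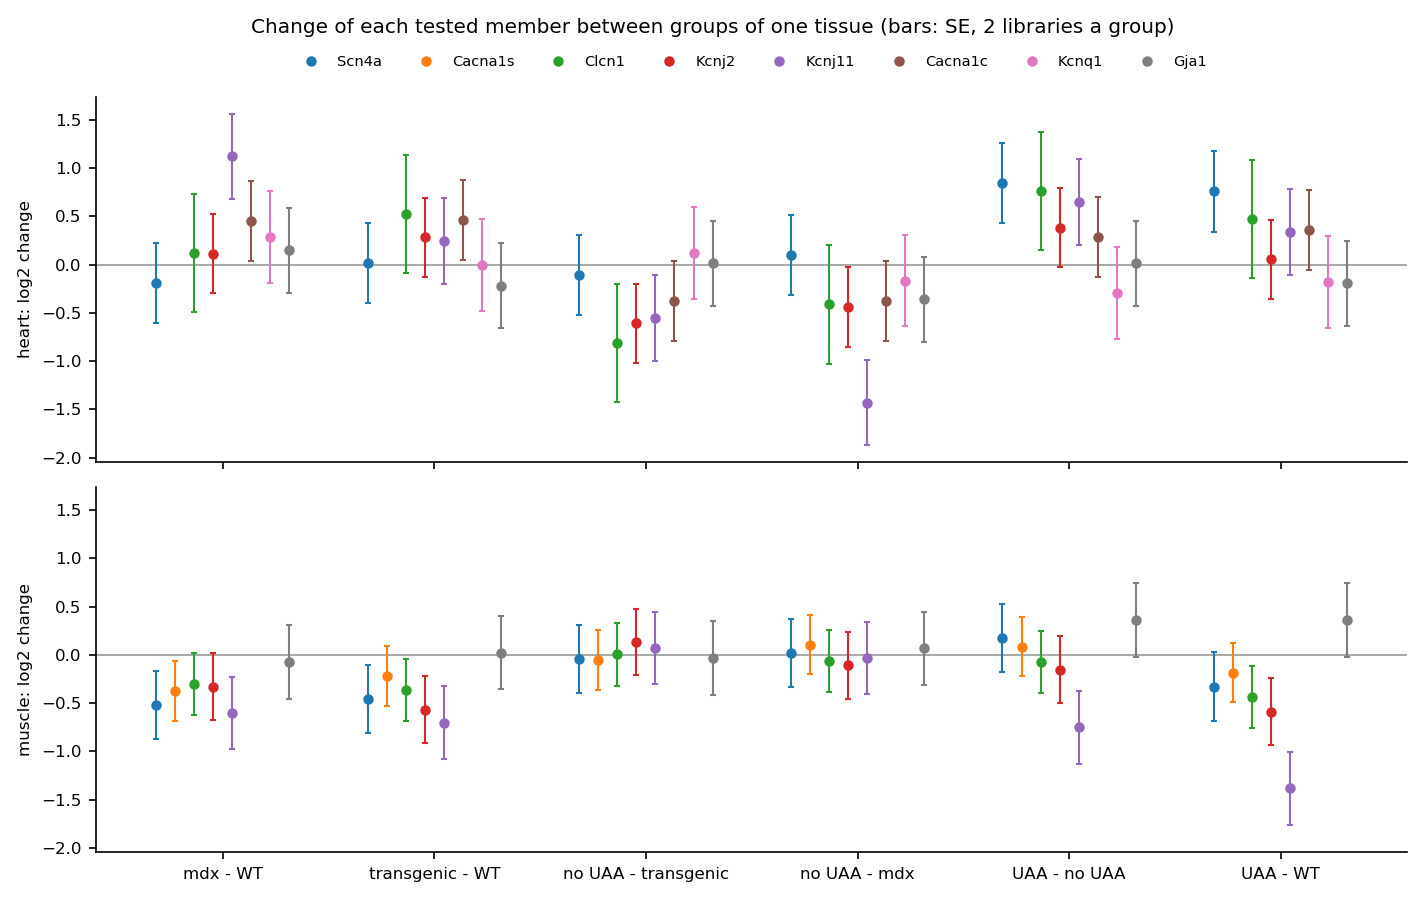
Change of each tested member on the log2(FPKM + 1) scale in 6 contrasts of groups, in heart (top) and muscle (bottom); points are the limma estimates and bars their SE. Kcnj11 lies furthest from 0 in heart in mdx against WT (1.12) and untreated trans/mdx against mdx (-1.43), and in muscle in treated trans/mdx against WT (-1.38).

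Kcnj11 had the largest changes of the 8. In heart, mdx was above WT by 1.12 on the log2 scale (SE 0.44, unadjusted p 0.0226, adjusted p 1). Untreated trans/mdx was below mdx by a log2 change of -1.43 (SE 0.44, unadjusted p 0.00540, adjusted p 0.625 in limma). The 2 contrasts share the mdx hearts, at 5.05 and 6.70 FPKM, which lay above the other 8 hearts at 0.947 to 3.70 FPKM. Of the genes tested in heart, 2.56% had both mdx libraries above all others.

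In muscle, treated trans/mdx was below WT in Kcnj11 by a log2 change of -1.38 (SE 0.38, unadjusted p 0.00317, adjusted p 0.453 in limma). Against untreated trans/mdx the change was -0.75 (SE 0.38, unadjusted p 0.0701, adjusted p 1). Both treated muscles, at 2.65 and 3.60 FPKM, lay below the other 8 at 4.66 to 12.6 FPKM, which 2.11% of tested genes also did. In heart the treated libraries were at 2.53 and 3.46 FPKM and the untreated ones at 0.947 and 2.29. That log2 change was 0.65 (SE 0.44, unadjusted p 0.163, adjusted p 0.937 in limma). The test of whether the change from untreated to treated differed between tissues, muscle minus heart, gave -1.40 (SE 0.55, unadjusted p 0.0211, adjusted p 1). For mdx against WT it gave -1.72 (SE 0.55, unadjusted p 0.00604, adjusted p 0.795).

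Fibroblast markers had their lowest and highest levels in the same muscles as Kcnj11. Their 8 genes summed to 120 and 230 FPKM in WT, 82.6 and 80.0 in transgenic, 109 and 108 in mdx, 60.04 and 72.5 in untreated trans/mdx, and 39.3 and 58.7 in treated trans/mdx, and none was at 0 in any group. The treated muscles had the lowest sums and the lowest Kcnj11, and WT replicate 2 had the highest of both. Between these the order differed. In mdx replicate 2 a sum of 108 stood beside Kcnj11 at 4.66 FPKM. In untreated trans/mdx the lower sums stood beside Kcnj11 at 5.81 and 5.96 FPKM. The 8 Schwann cell and nerve markers summed to 31.0 and 28.3 FPKM in WT, 38.0 and 38.7 in transgenic, 15.5 and 10.7 in mdx, 22.0 and 17.4 in untreated trans/mdx, and 7.25 and 11.1 in the treated muscles. The highest of these sums were in transgenic, where Kcnj11 was under WT. The part of these markers in the Kcnj11 levels was not tested. In heart the fibroblast sums were 75.9 and 111 FPKM in mdx, 73.9 and 70.3 in WT, and 62.2 and 44.2 in untreated trans/mdx, and their part in the heart values was not tested.

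Scn4a was higher in the treated hearts, at 1.76 and 1.45 FPKM, than in the other 8 hearts, at 0.117 to 0.857, as were 2.24% of tested genes. Only these 2 hearts reached 1 FPKM, so Scn4a passed the heart filter through the treated group alone. Its heart tests, and that share over genes passing the same filter, are thus a description only. The log2 change was 0.85 against untreated trans/mdx (SE 0.41, unadjusted p 0.0583, adjusted p 0.849) and 0.76 against WT (SE 0.41, unadjusted p 0.0875, adjusted p 1), and the 2 share the treated hearts. Fast skeletal fibre markers moved with it, and their part in the Scn4a values was not tested. The 10 such genes, leaving out Acta1 and Ckm, which heart also expresses, summed to 14.5 and 15.1 FPKM in the treated hearts and to 0 to 2.04 FPKM in the other 8. All 10 were listed at 0 in both WT hearts.

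Heart levels can also be given as a share of the muscle median. Scn4a in the treated hearts was 5.55 and 4.58% of its muscle median, and 0.370 to 2.71% in the other hearts. In the same hearts the fast fibre troponin Tnnt3 stood at 0.158 and 0.0619% of its muscle median, the fast myosin Myh4 at 0.0612 and 0.0553%, and the calcium pump Atp2a1 at 0.120 and 0.272%. Cacna1s stood at 1.34 and 1.32% of its muscle median in the treated hearts, inside its range of 0.318 to 2.31% in the others. These shares include the level each gene has in hearts of the other groups, and what sets them was not tested.

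**Figure D5:**
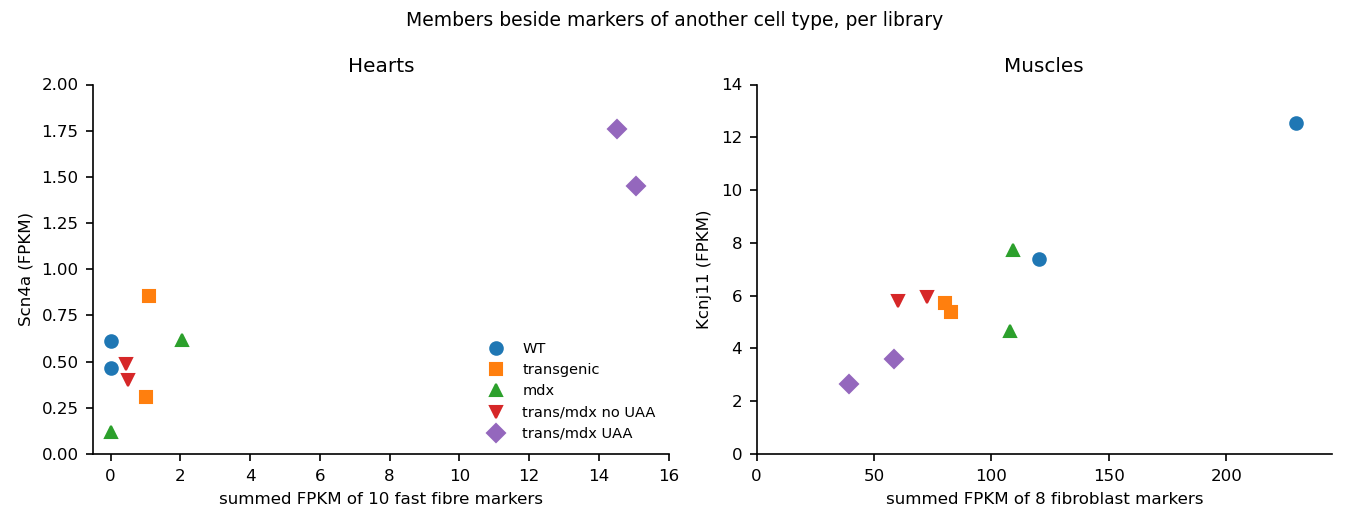
Left, Scn4a against the summed FPKM of 10 fast skeletal fibre markers in the 10 hearts; right, Kcnj11 against the summed FPKM of 8 fibroblast markers in the 10 muscles; symbols are libraries by group. The treated hearts stand alone at 14.5 and 15.1 FPKM of fast fibre markers with Scn4a at 1.76 and 1.45 FPKM, and the treated muscles have the lowest Kcnj11 and the lowest fibroblast sums.

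In muscle the members' values in the other groups were mostly under those in WT, without passing the test. The median change of the 6 tested members was -0.35 in mdx, -0.41 in transgenic and -0.38 in treated trans/mdx, against WT, beside -0.35, -0.33 and -0.26 over all genes tested. These contrasts share the WT muscles. Without WT replicate 2 the medians of all genes were -0.09, -0.07 and -2.31e-05. Kcnj2 in both WT muscles, at 8.80 and 6.89 FPKM, was above the other 8, as were 9.3% of all genes tested. Scn4a differed from WT by -0.52 (SE 0.35) in mdx muscle, and Cacna1s by -0.37 (SE 0.31), both beyond the shift of all genes by less than 1 SE. The contrasts that leave out WT gave changes of -0.15 to 0.37 for the 5 members other than Kcnj11.

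Gja1, Kcnq1, Kcnj2 and Cacna1c did not pass the test in any heart contrast. Gja1 differed by 0.15 (SE 0.44) in mdx against WT and by 0.01 (SE 0.44) in treated against untreated trans/mdx. Cacna1c differed by 0.45 (SE 0.41) in mdx against WT and by 0.28 (SE 0.41) in treated against untreated. Kcnq1 differed by 0.28 (SE 0.47) and -0.29 (SE 0.47), and Kcnj2 by 0.11 and 0.38 (SE 0.41 for both), in the same contrasts. Clcn1 had the widest error, with changes of 0.12 and 0.77 (SE 0.61 for both).

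None of the listed channels was called within a tissue either, among 56 tested in heart and 60 in muscle. Fxyd1, which regulates the sodium pump, stood above the untreated level in the treated hearts by 1.26 (SE 0.39, adjusted p 0.644). In muscle Cacng6, a calcium channel gamma subunit, differed by -1.29 in mdx against WT (SE 0.39, adjusted p 0.424) and by -1.01 in transgenic against WT. By the rule of the smallest unadjusted p, Kcnj12 (-1.02) was named for mdx against WT in heart, Gjc1 (-1.18) and Piezo1 (-1.01) for transgenic against WT, and Cacna2d2 (-1.07) and Kcnip2 (-1.09) for untreated trans/mdx against transgenic and mdx. For treated trans/mdx against WT hearts they were Fxyd1 (0.81) and Orai1 (-0.996). In muscle Slc8a3 (0.57) and Clcn6 (-0.67) were named for untreated trans/mdx against transgenic, Slc8a1 (0.93) against mdx, Kcna5 (0.97) and Slc8a1 (-0.83) for treated against untreated, and Ano6 (-1.02) for treated against WT. Their log2 changes did not pass the adjusted threshold.

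The genes whose levels ran most nearly parallel to each channel over the 10 libraries of its higher tissue were named as a description, since these libraries share depth and groups. For Kcnj11 in muscle they were Dcn, which is among the fibroblast markers, Ebf1 and Igfbp6, with Pearson r from 0.952 to 0.926 over 10 libraries. For Scn4a they were 2700089E24Rik, Bsg and Gpr180 (r from 0.951 to 0.942), for Cacna1s Tpcn1, Rac1 and Adssl1 (0.971 to 0.950) and for Clcn1 Aldh6a1, Serinc1 and C1qc (0.955 to 0.944), all in muscle. For Kcnj2 in muscle they were Rab5c, Abca5 and Map1a (0.950 to 0.913). In heart they were Zfp949, Wwp1 and Irf2bp1 for Cacna1c (0.941 to 0.919), Igf1r, Cep110 and Ptpn21 for Kcnq1 (0.923 to 0.893), and Uqcrb, Paip2 and Itm2b for Gja1 (0.977 to 0.976).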

How the data were processed

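Total RNA of hearts and tibialis anterior muscles was depleted of ribosomal RNA and sequenced after a directional library kit, per the labels' protocols. Per the submitters' processing notes, the tools were HISAT2 2.0.4, cutadapt 1.9.3, Cuffdiff and Cufflinks, on build mm10. The authors deposited FPKM (fragments scaled to transcript length and library depth) for each gene and library. The sources used here give no annotation release or strand setting. The FPKM sums ranged from 113544 to 208611 and were not rescaled. An exact 0 can be a failed estimate, and intervals are not given since counts are not in the table.

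From these values log2(FPKM + 1) was fitted with limma 3.58.1 (R 4.3.3, intensity trend, two-sided), within each tissue (10 libraries, 5 groups, 5 residual degrees of freedom) and over both (20 libraries, 10 residual degrees of freedom). Genes needed 1 FPKM in 2 fitted libraries; p-values were adjusted by Benjamini and Hochberg over all genes tested, with 0.05 as threshold. The pseudocount of 1 FPKM understates changes of low genes. Alternatives were another pseudocount, no filter or a stricter one, other scalings, a replicate block, other sets of fitted libraries and each library left out; leaving out both libraries that stood apart was chosen after seeing the data. The pipeline was tested on simulated data. The members and the channel and marker lists were chosen with earlier results of these data known. All 8 members are named in each comparison. Of other channels, up to 2 per list and direction with the largest tissue difference are named, and within a tissue the 2 with the smallest p. For likeness the 3 genes with the highest r are named. Some genes that the rule picks are not reported here. Kcne1, Abcc9, Kcnj8, Cacna1d and Atp2a1 were named after their values were seen. Motifs were searched in RefSeq promoter windows (GRCm38.p6, the patched build of mm10). A single emptied line of the table and 1 further column of values were not analysed here.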

Additional observations from a re-analysis of the deposited data

Results flagged for a closer look

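Cacna1s in muscle WT replicate 2, at 77.8 FPKM, stood away from the other 9 muscles: its gap to the next library was 0.580 of the whole range on the log2(FPKM + 1) scale, above Dixon's 95% critical value for 10 libraries. Chance gives about 1 such value in 20 groups, and 15 sets of 10 libraries were examined. That library also had the highest Scn4a, Clcn1 and Kcnj11 of the muscles and the highest FPKM sum.

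For 3 members every library moved one way in heart and the other way in muscle under the same contrast. Over all 10085 genes tested, the share that did so was 3.8 to 5.53% by contrast, and no contrast had more than 2 of the 8 members. For Kcnj11, treated against untreated trans/mdx, the difference between tissues (muscle minus heart) was -1.40 (unadjusted p 0.0211, adjusted p 1 in limma). For Kcnj2, transgenic against WT, it was -0.849 (unadjusted p 0.0905, adjusted p 0.987). For Cacna1c, mdx, transgenic and treated trans/mdx against WT gave -0.929, -0.864 and -0.861 (unadjusted p 0.0666, 0.0861 and 0.0869, adjusted p 0.795, 0.987 and 0.9997), and these share the WT libraries and rest on 1.72 to 20.5 implied fragments a muscle library. None passed the adjusted threshold.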

How the results depend on the processing

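All 8 members stayed called between heart and muscle under each alternative tried, with these exceptions. With genes limited to a mean of 5 FPKM or more, 4 members were tested and called, since the others were too low, and 1396 genes were called in all. After quantile normalization Kcnj11 was not called (-0.44, adjusted p 0.0579). Scaling moved the median difference of all genes from -0.25 to -0.00471 (quantile normalization) and -0.0268 (median-of-ratios), and under both no member changed direction between tissues. Leaving out each library in turn kept 8 members called every time, with 3783 to 4313 genes called in all. Within a tissue and between tissues, 0 members were called in any of 246 refits of 18 comparisons. Of 126 member values, 71 had the other sign under 1 or more alternatives, and none passed the threshold under any. Kcnj11 ranged from 0.94 to 1.41 in mdx against WT heart and from -1.90 to -1.05 in untreated trans/mdx against mdx heart. Its change in treated trans/mdx against WT muscle ranged from -1.73 to -1.04, with adjusted p from 0.243 to 0.937. The number of genes called in all, 0 or 1 in the contrasts within a tissue, ranged from 0 to 11 over the alternatives.

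Same-numbered libraries did not deviate together: correlations of their deviations from the group means were -0.020 to 0.011 between heart and muscle of one group. The labels give 2 mice a group for both tissues but do not say that a number marks one mouse. A replicate block (mouse) kept 8 members called between tissues, with 3960 genes called in all, and left 0 called in the other comparisons.

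Depth limits Kcnj11, Kcnq1, the heart levels of Scn4a, Cacna1s and Clcn1 and the muscle levels of Cacna1c and Gja1, which rest on few fragments.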
